A study of Arabidopsis thaliana with 6 samples.

Results

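The 60 genes described here encode proteins of the cytosolic small (40S) ribosomal subunit of Arabidopsis thaliana. They were chosen by locus identifier, not by any measured value, and are 60 of the 33602 genes in the count table. They encode 31 proteins, from RPSa and RPS2 to RPS30 and RACK1, of which 10 have 1 listed copy, 13 have 2 and 8 have 3. Messenger RNA of whole Col-0 wild-type seeds was sequenced in 6 libraries, 3 after a red pulse (Rp) and 3 after a far-red pulse (FRp). The study harvested the seeds of each genotype in a single bulk, so variation between harvests is not covered. All seeds were imbibed in darkness for 2 h and received a first FRp of 20 min, which lowered the active phytochrome (Pfr) left from seed development. They then spent 3 days in the dark at 5 °C. After that the seeds received 20 min of Rp (0.05 µmol m-2 s-1, calculated Pfr/P of 0.87) or 20 min of FRp (42 µmol m-2 s-1, calculated Pfr/P of 0.03) and were collected 12 h later. The comparison asks which transcripts differ between seeds whose germination was promoted by light and seeds in which it was not. Whole seeds hold the embryo, the endosperm and the seed coat, so fewer cells of a type and less RNA per cell cannot be told apart.

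The 40S subunit binds the messenger RNA, scans it and reads its codons, while the 60S subunit joins the amino acids. The messenger RNA enters between the head and the body of the 40S subunit, passes the decoding centre and leaves near the platform. A dry seed stores ribosomes, and new ribosomal proteins are made as the embryo resumes growth. In plants each ribosomal protein is encoded by a small family of nuclear genes, and the copies often encode nearly the same protein. RPS6 is phosphorylated by S6 kinase, which acts under the TOR kinase, and RACK1 is a WD40 scaffold protein on the head of the subunit.

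The libraries held 24234421 to 32387080 gene reads. The 20 genes with the most reads took 4.94 to 6.95% of the reads after the Rp and 22.8 to 26.9% after the FRp. The 8 seed storage and oil body genes (cruciferins, albumins and oleosins) were all detected, at 1.17 to 1.90% of the reads after the Rp and 11.6 to 13.2% after the FRp, and all 8 fell. The 4 photosynthesis genes that mark leaf tissue took 0.0791 to 0.112% after the Rp and 0.0250 to 0.0330% after the FRp, none was at 0 and all 4 rose. Levels are given in CPM, the reads of a gene scaled to a common library total, after the TMM adjustment of that total, which lowers the weight of such abundant genes. The part of these lists in the results below was not tested beyond the scalings. Without TMM the median over all tested genes moved from 0.021 to 0.45 in log2 fold change, and the median of the 40S genes from 0.78 to 1.21.

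Transcripts of the 40S proteins were more abundant after the Rp. Together the 60 genes took 4.53, 4.74 and 4.28% of the gene reads in the Rp libraries and 1.82, 2.00 and 2.18% in the FRp libraries. With the 20 most abundant genes left out of the totals, these shares averaged 4.82% ± 0.299 (SD, n = 3) and 2.66% ± 0.217 (SD, n = 3). All 60 genes passed the filter on low counts, with a median level of 598 CPM per kb of exon as the mean of both conditions. By the edgeR quasi-likelihood test over all 16924 tested genes, 45 rose (adjusted p under 0.05 and fold change over 1.5), 0 fell and 15 were not called. In the same test 28.8% of all tested genes rose and 26.8% fell, 55.6% together. The log2 fold changes of the 60 genes had a median of 0.78 and quartiles of 0.59 and 1.17, beside a median of 0.021 over all tested genes. In 55 of the 60 genes all Rp libraries lay above all FRp libraries, which holds for 39.9% of all tested genes. In 1 gene they all lay below and in 4 the conditions overlapped. A fold change over 2 was reached by 20 of the 60 genes and by 18.2% of all tested genes.

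**Figure D1:**
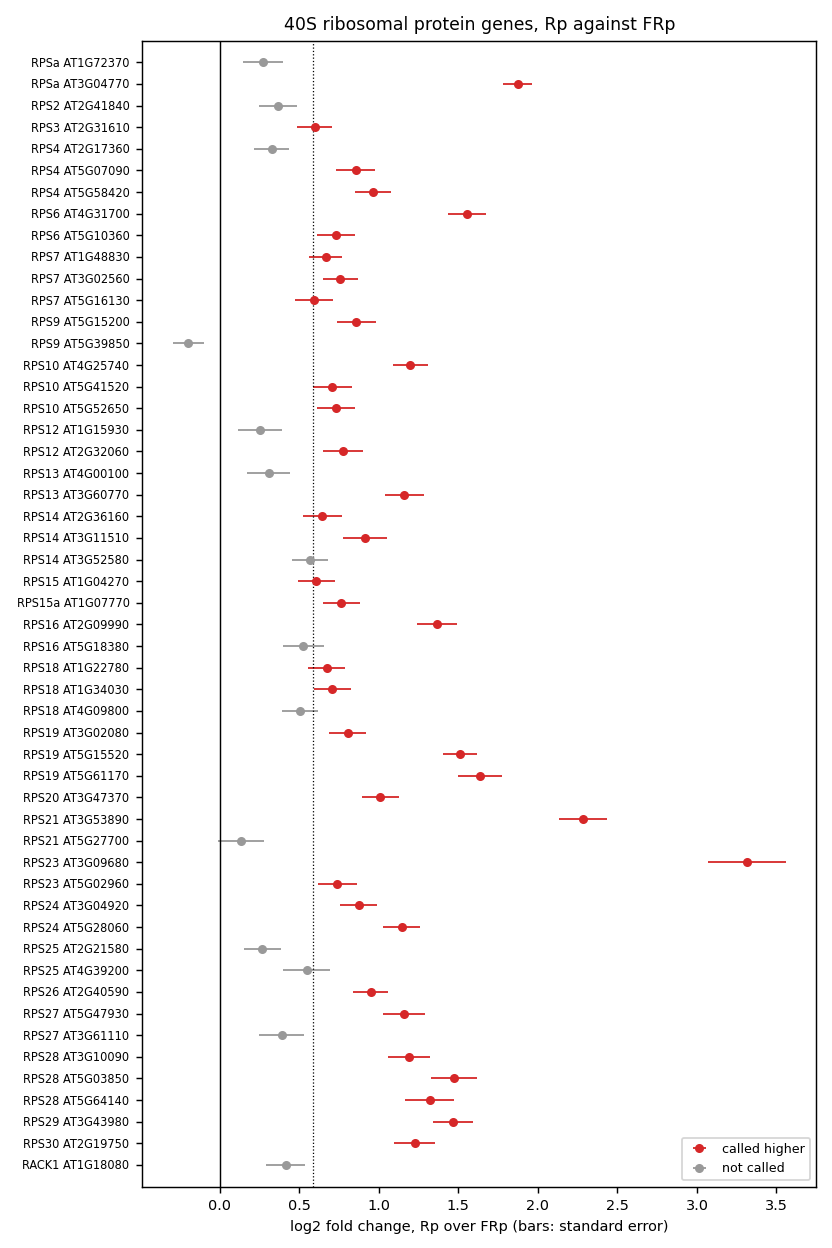
Log2 fold change of 52 of the 60 genes, Rp over FRp, with its standard error (bars), for 3 libraries per condition. The solid line is at 0, the dotted line at a fold change of 1.5, red points were called higher and grey points were not called. The lowest gene, RPS9 AT5G39850, lies left of 0, and RPS23 AT3G09680 at 3.31 is farthest to the right.

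Genes near the threshold were decided by small differences. The lowest log2 fold change among the genes that rose was 0.59, in RPS7 AT5G16130, and the highest among those not called was 0.58. Of the 15 genes not called, 9 had an adjusted p under 0.05 and missed the fold threshold only, so that 54 of the 60 genes were higher by the adjusted p alone, beside 38.3% of all tested genes. RPS3 AT2G31610, RPS7 AT5G16130, RPS14 AT2G36160 and RPS15 AT1G04270 lost the call in at least 1 alternative fit. Without TMM 58 genes rose, and the exceptions were RPS9 AT5G39850 and RPS21 AT5G27700.

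The gene with the highest and the gene with the lowest log2 fold change are shown by the sequence before their start, since the data rank the whole list between them. Sequences were read from RefSeq TAIR10.1, from 5′ to 3′ on the strand of the gene. Capitals mark 2 motifs known from promoters of plant ribosomal protein genes, the telo-box (AAACCCTA) and the site II element (TGGGCC or TGGGCT), on either strand. The stretch of RPS23 AT3G09680 is chr3:2970372-2970621 (minus strand), and that of RPS9 AT5G39850 is chr5:15949772-15949909 (plus strand), which ends where RefSeq annotates an exon of the gene.
RPS23 AT3G09680: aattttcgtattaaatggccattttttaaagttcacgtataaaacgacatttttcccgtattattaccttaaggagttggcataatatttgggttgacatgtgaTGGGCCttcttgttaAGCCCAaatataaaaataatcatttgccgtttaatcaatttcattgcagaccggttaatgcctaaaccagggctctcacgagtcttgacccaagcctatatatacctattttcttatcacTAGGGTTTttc
RPS9 AT5G39850: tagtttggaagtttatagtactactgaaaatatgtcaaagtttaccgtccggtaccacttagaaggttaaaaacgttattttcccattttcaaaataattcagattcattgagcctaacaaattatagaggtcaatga
The first holds 2 site II elements and 1 telo-box, the last of these close to the start of the gene. The second holds no capitals in the printed stretch, while the whole window from 250 bases before to 50 after the start of this gene holds 2 site II elements and no telo-box. In that window a telo-box was found in 47 of the 60 genes (78.3%) and in 8.57% of 26711 promoters. A site II element was found in 47 of the 60 genes and in 21.7% of the promoters, and both motifs were found in 39 genes (65.0%) and in 2.92% of the promoters. Only 5 genes held neither motif, against 72.7% of the promoters: RPS14 AT3G11510, both RPS16 genes, RPS27 AT3G61110 and RPS28 AT3G10090. Of 27 listed genes of the cytosolic 60S subunit, 21 held a telo-box, 22 a site II element, 18 both and 2 neither. The median log2 fold change was 0.85 in the 47 genes with a telo-box and 0.60 in the others, and it was 0.78 in the 47 genes with a site II element and 0.91 in the others. These are matches of letters and were not tested as binding sites.

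The genes are described below by where their protein sits in the subunit, a grouping made with the values known. Among 7 genes for the 5 proteins along the entry of the messenger RNA and the decoding centre (RPS2, RPS3, RPS9, RPS23 and RPS30), 5 rose and 2 were not called, with a median log2 fold change of 0.74. RPS23, which reaches into the decoding centre, had the copy with the largest log2 fold change of all, AT3G09680 (chr3:2969045-2970371), at 5.95, 6.64 and 6.86 CPM after the Rp and 0.697, 0.515 and 0.751 CPM after the FRp (log2 fold change 3.31 ± 0.25 (SE), adjusted p = 1.1e-07). It also had the lowest level per length of the 60 genes, with 203, 198 and 253 reads after the Rp and 14, 15 and 19 after the FRp. Its partner AT5G02960 was far more abundant per length (1559 against 935 CPM per kb, beside 9.81 against 0.990 CPM per kb for the rare copy), at 1119, 1228 and 1155 CPM after the Rp and 631, 689.8 and 781 CPM after the FRp (log2 fold change 0.74 ± 0.12 (SE), adjusted p = 1.4e-04). The coding sequences of the pair are 90.9% identical and share 20 overlapping stretches of 50 bases, counted at every start position. Reads may therefore have been split between the copies, and the part of such reads in the change of the rare copy was not tested.

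RPS9, a protein at the messenger RNA entry, had one copy that rose and one that did not. AT5G15200 was at 1697, 1763 and 1556 CPM after the Rp and 869, 869.7 and 1027 CPM after the FRp (log2 fold change 0.86 ± 0.12 (SE), adjusted p = 4.3e-05). AT5G39850 (chr5:15950022-15951425) was the 1 gene with all Rp libraries below the FRp libraries, at 129, 146 and 151 CPM after the Rp and 161, 163 and 164 CPM after the FRp, and its difference did not pass the test (log2 fold change -0.20 ± 0.10 (SE), adjusted p = 0.08). Its sign turned without TMM, to a log2 fold change of 0.23. RPS2 AT2G41840, also at the entry, was at 1099.6, 1069.7 and 1094 CPM after the Rp and 829, 768 and 939 CPM after the FRp, above in every Rp library but under the fold threshold (log2 fold change 0.36 ± 0.12 (SE), adjusted p = 0.015). RPS3 AT2G31610, which lines the entry channel, and RPS30 AT2G19750, near the decoding centre, rose with log2 fold changes of 0.60 and 1.22.

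Among 15 genes for the 7 proteins of the platform and the messenger RNA exit (among them RPSa, RPS14, RPS21, RPS26, RPS27 and RPS28), 10 rose and 5 were not called, with a median log2 fold change of 0.91. RPSa, the plant relative of the animal laminin receptor precursor, is encoded by RPSaA and RPSaB. RPSaA (AT1G72370) was at 1378, 1307 and 1380.5 CPM after the Rp and 1088, 1018 and 1264 CPM after the FRp, without overlap but not past the test (log2 fold change 0.27 ± 0.12 (SE), adjusted p = 0.063). RPSaB (AT3G04770) was at 72.7, 76.0 and 78.6 CPM after the Rp and 20.97, 19.9 and 21.2 CPM after the FRp (log2 fold change 1.87 ± 0.091 (SE), adjusted p = 4.1e-09). Per length RPSaA was the abundant copy in both conditions (1138 against 943 CPM per kb) and RPSaB the rare one (62.6 against 17.1 CPM per kb).

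RPS21, which sits beside RPSa, had one copy that rose strongly and one that was not called. AT3G53890 (chr3:19955344-19956361) was at 584, 656 and 501 CPM after the Rp and 101, 113 and 143 CPM after the FRp (log2 fold change 2.28 ± 0.15 (SE), adjusted p = 4.7e-08). AT5G27700 was at 588, 646 and 435 CPM after the Rp and 482, 498 and 541 CPM after the FRp, with overlapping conditions (log2 fold change 0.13 ± 0.14 (SE), adjusted p = 0.41). Per length the first copy was at 993 against 204 CPM per kb and the second at 927 against 845 CPM per kb, so that the second was the higher after the FRp and both stood close together after the Rp.

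RPS14 and RPS27, both of the platform, had 1 copy each under the fold threshold. RPS14 AT3G52580 was at 302, 322 and 273 CPM after the Rp and 190.5, 191 and 225 CPM after the FRp, higher in every Rp library (log2 fold change 0.57 ± 0.11 (SE), adjusted p = 5.8e-04). RPS27 AT3G61110 was at 679, 776 and 543 CPM after the Rp and 470.2, 496 and 560.4 CPM after the FRp, with Rp replicate 3 inside the range of the FRp libraries (log2 fold change 0.39 ± 0.14 (SE), adjusted p = 0.025). The 3 RPS28 genes, whose protein lies at the messenger RNA exit, rose with log2 fold changes of 1.19, 1.47 and 1.32, as did RPS26 AT2G40590 with 0.95, RPS27 AT5G47930 with 1.16, and RPS14 AT2G36160 and AT3G11510 with 0.64 and 0.91.

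Among 17 genes for the 8 proteins of the body (among them RPS4, RPS6, RPS7, RPS13, RPS15a and RPS24), 15 rose and 2 were not called, with a median log2 fold change of 0.87. The 2 genes of RPS6, the target of S6 kinase, both rose. RPS6A (AT4G31700, chr4:15346072-15347727) was at 1577, 1625 and 1574 CPM after the Rp and 494, 544 and 589 CPM after the FRp (log2 fold change 1.55 ± 0.12 (SE), adjusted p = 1.6e-07). RPS6B (AT5G10360, chr5:3258474-3260234) was at 957, 980.3 and 979.7 CPM after the Rp and 562, 548 and 649.6 CPM after the FRp (log2 fold change 0.73 ± 0.12 (SE), adjusted p = 9.8e-05). Per length RPS6A was at 1576 against 537 CPM per kb and RPS6B at 882 against 532 CPM per kb, so that the copies stood close together after the FRp and RPS6A was the higher after the Rp.

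RPS13 binds the central domain of the 18S ribosomal RNA, and its gene RPS13A (AT4G00100), also named PFL2, is known for the pointed first leaves of its mutant. RPS13A was at 713, 749 and 568 CPM after the Rp and 533, 499 and 609 CPM after the FRp, with overlapping conditions (log2 fold change 0.31 ± 0.14 (SE), adjusted p = 0.056). The other copy, AT3G60770, was at 753, 854 and 698 CPM after the Rp and 318, 349.9 and 363 CPM after the FRp (log2 fold change 1.16 ± 0.12 (SE), adjusted p = 2.3e-06). RPS4 AT2G17360 was at 529.6, 586 and 523 CPM after the Rp and 409, 437 and 462 CPM after the FRp, above in every Rp library but under the fold threshold (log2 fold change 0.32 ± 0.11 (SE), adjusted p = 0.019). The remaining 2 RPS4 genes, AT5G07090 and AT5G58420, rose with log2 fold changes of 0.85 and 0.96. The 3 RPS7 genes (AT1G48830, AT3G02560 and AT5G16130) rose by 0.66, 0.76 and 0.59, RPS15a AT1G07770 by 0.76, and the RPS24 genes AT3G04920 and AT5G28060 by 0.87 and 1.14 on the log2 scale.

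Among 21 genes for the 11 proteins of the head (among them RPS10, RPS12, RPS15, RPS16, RPS18, RPS19, RPS20, RPS25, RPS29 and RACK1), 15 rose and 6 were not called, with a median log2 fold change of 0.73. RACK1A (AT1G18080) was at 1044, 996 and 1009 CPM after the Rp and 738, 699 and 853 CPM after the FRp, higher in every Rp library and under the fold threshold (log2 fold change 0.41 ± 0.12 (SE), adjusted p = 0.0073). RPS18A (AT1G22780), also named PFL and known for pointed first leaves like PFL2, was at 544, 556 and 481 CPM after the Rp and 313, 315 and 365 CPM after the FRp (log2 fold change 0.67 ± 0.12 (SE), adjusted p = 2.0e-04), while RPS18C (AT4G09800) was at 499, 545 and 464 CPM after the Rp and 336, 348 and 379.7 CPM after the FRp (log2 fold change 0.50 ± 0.11 (SE), adjusted p = 0.0015). Their difference in log2 fold change was 0.17 (95% interval -0.19 to 0.52), an interval that holds 0. The ratio of these 2 genes within single libraries did not overlap between the conditions, which held for 30 of the 37 pairs of copies compared below.

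RPS12 AT1G15930 was at 776, 847 and 639 CPM after the Rp and 598, 583 and 719 CPM after the FRp, with Rp replicate 3 inside the FRp range (log2 fold change 0.25 ± 0.14 (SE), adjusted p = 0.11). RPS16 AT5G18380, with 1623 against 1128 CPM per kb among the 3 highest levels per length, was at 1267, 1164 and 1041 CPM after the Rp and 781, 747 and 884 CPM after the FRp (log2 fold change 0.53 ± 0.13 (SE), adjusted p = 0.0022). The partner of the last gene, AT2G09990, is 98.2% identical in coding sequence and shares 139 such overlapping stretches of 50 bases with it. The counts of both are therefore uncertain. AT2G09990 rose with a log2 fold change of 1.37. Other genes of the head rose, with log2 fold changes of 1.20, 0.71 and 0.73 in RPS10 (AT4G25740, AT5G41520 and AT5G52650), 0.61 in RPS15 AT1G04270, 0.71 in RPS18 AT1G34030 and 1.01 in RPS20 AT3G47370. In RPS19, a protein needed for processing of the 18S ribosomal RNA in yeast and human cells, they were 0.81, 1.51 and 1.64 (AT3G02080, AT5G15520 and AT5G61170), in RPS29 AT3G43980 1.47 and in RPS12 AT2G32060 0.78.

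RPS25, a protein of the head beside the exit site that takes part in initiation on some viral RNAs in yeast and human cells, was not called in either listed copy. AT2G21580 was at 786, 823 and 714 CPM after the Rp and 605, 634 and 693 CPM after the FRp (log2 fold change 0.27 ± 0.12 (SE), adjusted p = 0.055), and AT4G39200 (chr4:18257336-18258680) at 1268, 1329 and 941 CPM after the Rp and 784, 738 and 899.8 CPM after the FRp (log2 fold change 0.55 ± 0.15 (SE), adjusted p = 0.0049). In both genes every Rp library lay above every FRp library. Their coding sequences are 93.0% identical and share 8 overlapping stretches of 50 bases, so reads may have been split between them. With 1758 against 1203 CPM per kb, AT4G39200 also had one of the 3 highest levels per length.

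**Figure D2:**
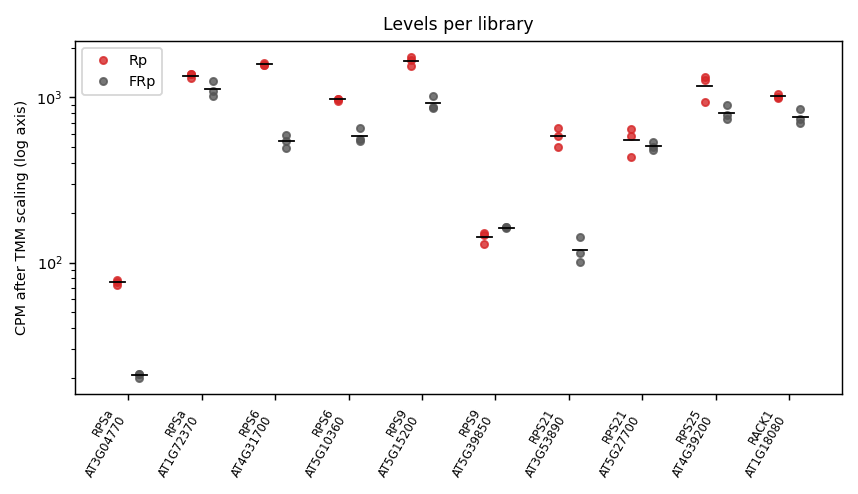
CPM after TMM scaling (log axis) of 10 genes in each of the 3 Rp libraries (red) and 3 FRp libraries (grey), with short lines at the means. RPSa AT3G04770 and RPS21 AT3G53890 are far apart between the conditions, while RPSa AT1G72370 and RPS21 AT5G27700 are close.

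Copies of 1 protein were then compared with each other. A ratio of 2 genes within a library does not depend on the scaling. The 21 proteins with several listed copies give 37 pairs, which share genes where there are 3 copies. The ratio of the copies did not overlap between the conditions in 30 pairs, each with the smallest p that the exact two-sided permutation test allows here, 0.10, so none can pass 0.05 by that test. The share of such pairs among other genes was not computed, so this count has no background to be read against. From the fit over all genes, the 95% interval of the difference in log2 fold change lay above 0 in 18 pairs, when each difference is taken as the larger minus the smaller. This interval combines the standard errors of both copies as if they were independent, although both were read in the same libraries. The difference was over 1 in 7 pairs and under 0.25 in 14 pairs. In 11 of the 21 proteins at least 1 copy rose and at least 1 was not called.

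Large differences were in RPS23, with AT3G09680 over AT5G02960 at 2.58 (95% interval 1.98 to 3.17), and in RPS21, with AT3G53890 over AT5G27700 at 2.15 (95% interval 1.69 to 2.61). AT3G53890 made up 49.8, 50.4 and 53.5% of the reads of the RPS21 pair after the Rp and 17.3, 18.6 and 20.9% after the FRp. RPSaB exceeded RPSaA by 1.60 (95% interval 1.27 to 1.94), and its share of the pair went from 1.89, 1.92 and 1.65% after the FRp to 5.01, 5.49 and 5.39% after the Rp. In these pairs the copy with the lower level per length, as the mean of both conditions, had the larger change. After the Rp alone, AT3G53890 was the higher copy of RPS21 (993 against 927 CPM per kb).

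RPS9 went the other way, since the abundant copy AT5G15200 had the larger log2 fold change, by 1.06 (95% interval 0.71 to 1.40), with 93.0, 92.4 and 91.2% of the pair after the Rp and 84.4, 84.2 and 86.2% after the FRp. Over all 37 pairs the copy with the lower level per length had the larger log2 fold change in 20 when the level is the mean of both conditions, which the change itself moves. The count was 23 by the level after the FRp and 18 by the level after the Rp. In RPS13 the difference of AT3G60770 over RPS13A was 0.85 (95% interval 0.46 to 1.25). RPS6A exceeded RPS6B by 0.82 (95% interval 0.46 to 1.19) and made up 62.2, 62.4 and 61.6% of the pair after the Rp and 46.8, 49.8 and 47.6% after the FRp. In RPS25 the difference of AT4G39200 over AT2G21580 was 0.28 (95% interval -0.13 to 0.69), which holds 0. The log2 ratios of this pair in single libraries did not overlap, at 0.69, 0.69 and 0.40 after the Rp and 0.37, 0.22 and 0.38 after the FRp. That held for 30 of the 37 pairs. Reads may have been split between these copies, and the part of such reads in the ratio was not tested.

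**Figure D3:**
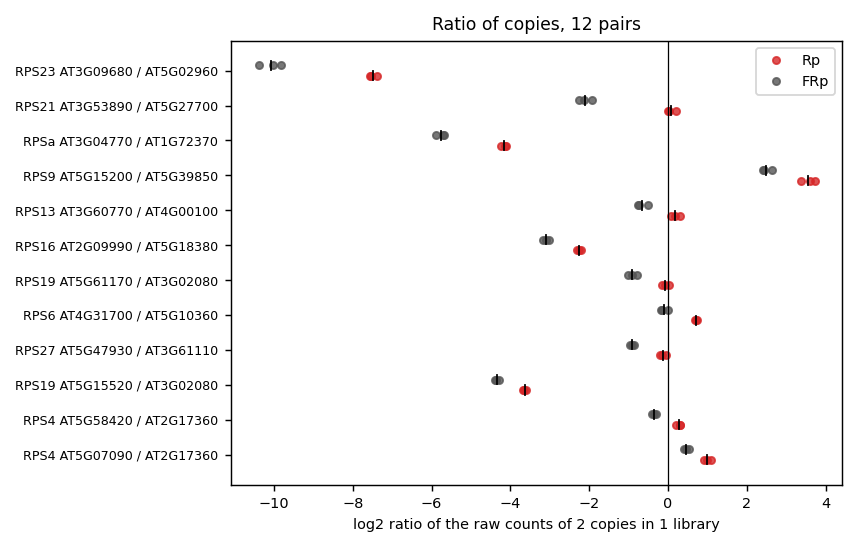
Log2 ratio of the raw counts of 2 copies of 1 protein in each of the 3 Rp libraries (red) and 3 FRp libraries (grey), for 12 pairs with large differences, with short lines at the means. In each of these pairs the conditions do not overlap, and for RPS21 the ratio is near 0 after the Rp and averages -2.10 after the FRp.

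Levels were also summed by protein. With the CPM of all copies of a protein summed, including copies outside the 60 genes, every one of the 31 proteins had all Rp libraries above all FRp libraries. The log2 ratio of the summed levels ran from 0.32 for RPSa to 1.49 for RPS2, with a median of 0.76 and an SD of 0.278 over the 31 proteins. The log2 fold changes of the 60 single genes had an SD of 0.616, but a sum averages over its copies and follows the abundant ones, so a smaller spread of the sums is given by their construction. The sum for RPS2 was 12809 CPM after the Rp, of which the listed gene AT2G41840 gave 1088, and the rest came from copies outside the 60 genes, among which reads may be split. RPS6 had a log2 ratio of 1.18 and RACK1 of 0.88. In the coding sequence the copies were 71.3 to 98.2% identical (median 85.3%), 4 of the 37 pairs shared a stretch of 50 bases, and no 2 different proteins shared 20 bases.

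Splicing of RPS25 AT4G39200 differed between the conditions. In this gene the third of 4 exons can be skipped, and it has 2 acceptors that lie 3 bases apart. The sites are shown because the called event joins the first to the last of them, with GT of each donor and AG of each acceptor in capitals (RefSeq TAIR10.1, plus strand of chromosome 4).
Donor of exon 2, chr4:18257623-18257652: aagcagaagaagaagGTtcgtttccgaata
Acceptors of exon 3, chr4:18257813-18257842: gatggtaaacaaaaaaacAGaAGtggagca
Donor of exon 3, chr4:18257953-18257982: tctgaccgtatgaggGTatattatcaatct
Acceptor of exon 4, chr4:18258336-18258365: ttgttgaaaattcAGatcaatgggtcgcta
Exon 3, chr4:18257833-18257967, capitals for the 3 bases between the acceptors: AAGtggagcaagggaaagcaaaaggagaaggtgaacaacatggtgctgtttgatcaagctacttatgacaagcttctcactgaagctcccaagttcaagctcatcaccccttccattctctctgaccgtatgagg
Exon 3 is 135 bases long, or 132 from the downstream acceptor, and all of it is coding. Without it 45 codons, 41.3% of the longest coding sequence of 327 bases, are left out and the reading frame is kept. The 2 annotated coding transcripts differ by the 3 bases and both contain the exon.

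The junction from exon 2 to exon 4 (last base 18257637, first base 18258351) had 225, 195 and 133 reads after the Rp and 0, 0 and 0 after the FRp. As a share of all junction reads that leave the donor of exon 2, this was 2.27, 2.42 and 1.75% after the Rp, a mean of 2.15% ± 0.356 (SD, n = 3). The FRp libraries had 3679, 4852 and 5352 reads from that donor, and a count of 0 allows shares of up to 0.0815, 0.0618 and 0.0561%. Skipping was thus seen in every Rp library and not detected at this depth in any FRp library. The limits cover counting error only. In the test of inclusion against exclusion reads over all 28466 tested events, the exon bin fell by 2.93 percentage points after the Rp (edgeR adjusted p = 9.4e-37). It was called in every alternative fit, where limma gave the highest adjusted p, 0.011. Inclusion reads of this bin were those of the downstream acceptor (first base 18257836) and of the junction from exon 3 to exon 4. Reads of the upstream acceptor (8411, 6850 and 7246 after the Rp) were not among them. The points therefore do not measure the skipped share of exon 3. Of 20785 junctions with a mean of at least 100 reads in a condition, the junction from exon 2 to exon 4 was the 1 with reads in all Rp libraries and 0 in all FRp libraries, and 2 showed the reverse. Every junction in the table had at least 6 reads in each library of 1 condition. The skipping junction was therefore listed and tested through its Rp reads alone. Neither its adjusted p nor its place among the 20785 junctions accounts for that selection. Low values were not set to 0 in the table, which holds 12800 library values from 1 to 4 reads. Some 0 values stand beside high counts, as in the RPS6A junction below, with 173, 390 and 0 reads in the FRp libraries. Whether the 0 values of the skipping junction are true counts was not tested.

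The acceptor 3 bases downstream (first base 18257836) took 12.7, 12.5 and 3.18% of the reads from the donor of exon 2 after the Rp and 12.7, 11.8 and 11.7% after the FRp. Rp replicate 3 stood apart from the other 5 libraries, which lay close together. The mean after the Rp was 9.47% with that library and 12.6% without it. The inclusion of the exon bin, which counts reads of this acceptor, differed by -3.09 percentage points without that library. The alternative acceptor event was not called (edgeR adjusted p = 0.86), and the introns of the gene were not called, with adjusted p from 0.41 to 0.90. The exon bin of exon 2 had 0 exclusion reads and was not tested.

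**Figure D4:**
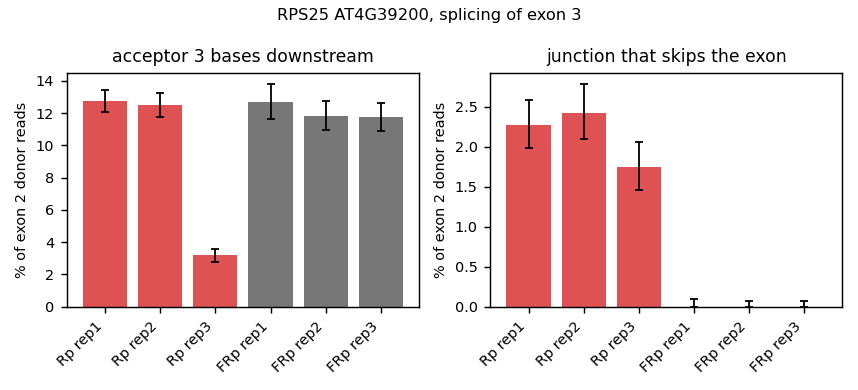
Share of the junction reads from the donor of exon 2 of RPS25 AT4G39200 that use the acceptor 3 bases downstream (left) or skip exon 3 (right), in each of 6 libraries. Bars are single libraries, red after the Rp and grey after the FRp, with exact binomial 95% intervals. The skipping junction is at 1.75 to 2.42% after the Rp and 0 after the FRp, and the downstream acceptor is low in Rp replicate 3 alone.

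All events of the 40S genes were read in the same test. Of 197 tested events in 57 of the 60 genes, 3 were called (adjusted p under 0.15 and over 0.5 percentage points), in 3 genes, beside 2.43% of the 28466 events in all genes, so the share called is near that of all genes. At the level of single tests, 29 of the 197 events and 3616 of all events had an unadjusted p under 0.05. The median retention over the 173 introns was 0.140% in the Rp libraries and 0.101% in the FRp libraries, and over all 25661 introns tested it was 1.36 and 1.37%.

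The second called event was an intron of RPS6A (AT4G31700, last base before it 15347622, first base after it 15347709), whose retained share was lower after the Rp (edgeR adjusted p = 6.9e-08). Its spliced junction had 990, 873 and 2074 reads after the Rp and 173, 390 and 0 after the FRp, while the reads on its boundaries were 7, 0 and 7 after the Rp and 6, 7 and 14 after the FRp. FRp replicate 3 therefore stands at a retained share of 100%, against 1.70 and 0.889% in the other FRp libraries. The difference of the pooled reads was -2.16 percentage points, -0.96 without FRp replicate 3 (adjusted p = 0.048) and -5.29 without FRp replicate 2. It was not called with robust variance estimates (adjusted p = 0.61) or limma (adjusted p = 0.29). A junction at 0 in 1 or 2 libraries of a condition with a mean of at least 100 reads occurred 9 times in the table.

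The third event was an intron of RPS10 AT5G52650 (last base before it 21356639, first base after it 21356838). Its retained share was 0.384, 0.269 and 0.172% after the Rp and 0.931, 1.22 and 0.549% after the FRp, without overlap (edgeR adjusted p = 0.065). The difference of -0.64 percentage points was not called by limma (adjusted p = 0.33), nor without Rp replicate 3, FRp replicate 1 or FRp replicate 2, where it was -0.57, -0.63 and -0.43 points.

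Other ribosomal protein genes were read in the same fit. Of 39 other copies of 40S proteins 35 were tested, of which 28 rose and 0 fell, with a median log2 fold change of 1.07. Of 27 genes of the cytosolic 60S subunit 20 rose and 0 fell, with a median of 0.91. All 9 genes of plastid 30S proteins rose, with a median of 1.03. Of 6 genes for TOR, its partners and S6 kinases, 2 rose, 1 fell and 3 were not called. Within these, S6K1 (AT3G08730) rose from 55.4 to 87.1 CPM (log2 fold change 0.65 ± 0.09 (SE), edgeR adjusted p = 2.2e-05), S6K2 (AT3G08720) fell from 39.7 to 16.2 CPM (log2 fold change -1.29 ± 0.11 (SE), edgeR adjusted p = 3.5e-07), and TOR itself (AT1G50030) was at 62.5 CPM after the Rp and 91.9 CPM after the FRp and was not called (log2 fold change -0.56 ± 0.15 (SE), edgeR adjusted p = 0.0048). The differences between the lists were not tested.

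**Figure D5:**
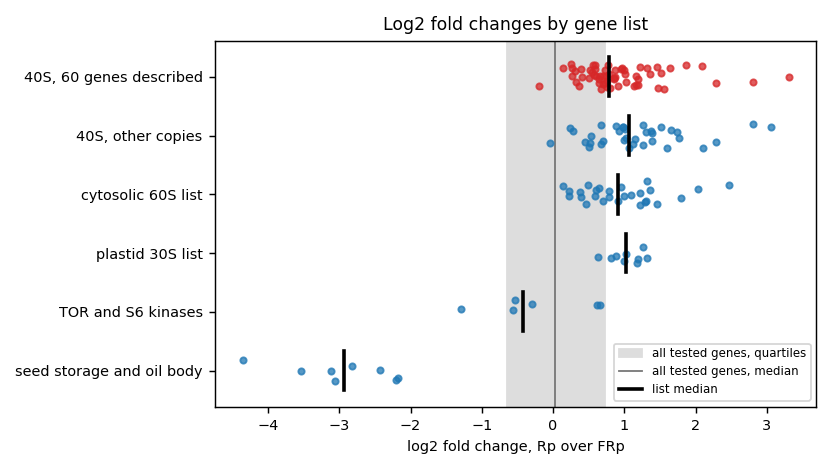
Log2 fold change, Rp over FRp, of the tested genes of 6 lists, with a point for each gene and a black line at the median of each list. The grey band spans the quartiles of all tested genes (-0.65 and 0.73) and the grey line their median. The medians of the 4 ribosomal protein lists lie between 0.78 and 1.07, and that of the seed storage and oil body genes is at -2.94.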

How the data were processed

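Polyadenylated RNA of 6 seed libraries was sequenced in read pairs. The authors aligned the reads to TAIR10 with TopHat2 2.1.1 and SAMtools 1.3, per the submitters' processing notes, and deposited raw counts of reads per gene and per splice junction or exon–intron boundary. The deposited inclusion fraction per condition, computed by the authors from pooled reads, was not used. Whether counting used strand is not stated, so antisense and overlapping genes, and near-identical copies, are uncertain.

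Genes with a mean count over 10 and over 0.05 reads per base of exon in at least 1 condition were tested on counts in R 4.3.3 with edgeR 4.0.16 (TMM, quasi-likelihood fit, Benjamini-Hochberg adjustment over all tested genes), with no covariate, with calls made as in the study, for fold changes over 1.5 whose adjusted p was under 0.05. Standard errors were derived from the log2 fold change and its F statistic. Splicing was tested with edgeR on inclusion and exclusion reads, with a term per library, for events with a mean of at least 10 junction reads in each condition and at least 5 reads in all on each side, in genes past the filter in both conditions, with calls for an adjusted p under 0.15 and over 0.5 points. The default fit gave infinite prior degrees of freedom, so an event's variance comes from the trend. The tests were tried on simulated data. Alternatives were DESeq2 1.42.0, limma 3.58.1 (pseudocount 0.5), other scalings, filters and thresholds, and each library left out. Junction shares have exact binomial 95% intervals, and a count of 0 a limit of 3 counts. PCR duplicates are not known, so these cover counting error only. The labels call the samples biological replicates.

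The genes, gene lists and tests were chosen with earlier results of these data known. Genes named with values were the 5 with the largest and the 5 with the smallest log2 fold change, both copies of the 6 pairs that differ most, the 3 with the highest level per length, every gene not called, and RPSaA, RPSaB, RPS6A, RPS6B, RPS13, RPS18A, RACK1A and AT4G39200, except genes that are not reported here. All 60 genes matched RefSeq TAIR10.1 by position, and 217 of 218 junctions read in them have GT and AG ends there. Plots were made in Python 3.11.15 (matplotlib 3.10.9).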

Additional observations from a re-analysis of the deposited data

How the results depend on the processing

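Of the 45 genes of the 40S subunit that rose, 41 were called in all 11 alternative fits of the genes, and no gene was called lower in any of them. The number called higher was 41 to 49 with 1 library left out, 43 with DESeq2, 50 without the 20 most abundant genes and TMM, 58 without TMM, 54 by the adjusted p alone and 20 with a fold change over 2. RPS9 AT5G39850 turned sign, to a log2 fold change of 0.23, without TMM. Over all genes, 4877 rose and 4536 fell (51.8% of the calls higher). Without TMM 7512 rose and 2576 fell (74.5% higher), and with a fold change over 2 it was 3088 and 2669. The medians of the 40S genes and of all genes moved together under the scalings. In the alternative fits 333 differences between copies were read over all 37 pairs. A turned sign was counted only in the 18 pairs whose interval in the fit over all genes lay above 0, and 0 turned. Sign changes in pairs whose interval held 0 were not part of this count. The calls of splicing were less stable. Over all genes 693 events were called, but 209 with the replicate block, 138 with limma, 269 at an adjusted p under 0.05 and 358 to 509 with 1 library left out. In the 40S genes 3 events were called, 1 with limma and 2 to 4 with 1 library left out. The replicate numbers did not pair the libraries, since the deviations of same-numbered libraries correlated at 0.066, -0.11 and -0.060 over genes, and with the number as a replicate block 45 of the 40S genes rose, 0 fell and 2 splicing events were called, without the intron of RPS10 AT5G52650 (edgeR adjusted p = 0.25). The cause of these differences was not tested. With 3 libraries per condition, log2 fold changes of the 40S genes had standard errors of about 0.12.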
